A study of Mus musculus with 12 samples.

Results

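The genes described here encode the nuclear subunits of the mitochondrial respiratory chain and the ATP synthase. They were chosen by symbol from the gene rows of the count files: the numbered Nduf genes, Ndufab1, Sdha to Sdhd, the Uqcr genes, Cyc1, Cycs, the Cox4 to Cox8 genes and the Atp5 genes, without pseudogene rows. The rule took 87 of 26608 rows. By complex these were 37 of complex I, 4 of complex II, 9 of complex III, 18 of complex IV and 15 of the ATP synthase (complex V), with Cycs for cytochrome c. The remaining 3 rows (Atp5s, Atp5sl and Cox4nb) matched by their letters only and encode no subunit of these complexes. Ndufa4 is counted with complex I by its symbol, although its protein is now assigned to complex IV.

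Libraries came from lung cells of C57Bl/6 mice, all of which had spent 3 weeks in hypoxia with a weekly dose of SU5416, an inhibitor of the VEGF receptor used with hypoxia to produce pulmonary hypertension. CrePos animals carried Cre driven by Cx3cr1 and deleted Hif1a (Hif1α Δ/Δ), and CreNeg animals carried floxed Hif1a (Hif1α flox/flox) without Cre. Only the CrePos groups had Cre, so Cre itself and the deletion cannot be told apart. Interstitial macrophages (IM) and nonclassical monocytes (titled RM) were sorted at about 250 cells per library, with 3 libraries in each of the 4 groups. The libraries carry numbers that may mark animals, but the labels do not say so. P-values therefore measure only the spread between these libraries, which may be technical. No animal without hypoxia was included.

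The chain passes electrons from NADH (complex I) and succinate (complex II) through ubiquinone, complex III and cytochrome c to oxygen at complex IV, and the proton gradient that this builds drives ATP synthesis in complex V. HIF-1α, the oxygen-regulated transcription factor deleted here, is known to shift cells from oxidative metabolism towards glycolysis in hypoxia. Among its known targets are PDK1, which limits the entry of pyruvate into the tricarboxylic acid cycle, and the complex IV isoform COX4I2. The subunits encoded by mitochondrial DNA were not analysed here.

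Gene counts per library ranged from 5332600 to 14099509, and the subunits took between 0.162 and 0.336% of them. Reads outside annotated exons made up 38.5 to 44.2% of gene plus non-exonic reads in IM CreNeg and 59.2 to 69.8% in IM CrePos, without overlap, and 58.1 to 66.8% against 55.1 to 72.7% in the RM groups. Hif1a, at 228 ± 15.6 CPM (counts scaled to library size; SD, n = 3) in IM CreNeg and 199 ± 6.5 in IM CrePos, and at 225 ± 19.6 and 172 ± 34.8 in the RM groups, did not pass the test in either cell type. Counts over a whole gene do not measure the loss of floxed exons. The 9 interstitial macrophage markers summed to a mean of 14232 CPM in IM CreNeg against 2408 in RM CreNeg, and the 10 nonclassical monocyte markers to 2150 against 10957, which matches the labelled cells. Markers of other lung cells were present in every library: the 10 endothelial markers, none of them at 0 in any library, summed to between 577 and 6283 CPM, and the 8 epithelial markers to between 223 and 2686. The 5 neutrophil markers summed to between 26.4 and 123 CPM, mostly from Csf3r and Mmp8, with Retnlg at 0 in 11 of 12 libraries. The 4 alveolar macrophage markers summed to means of 234 CPM in IM CreNeg and 168 in IM CrePos. In RM CreNeg and RM CrePos the means were 41.8 and 75.6 CPM. The part of alveolar macrophages in the comparisons between IM and RM was not tested.

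Promoters of these genes are known for sites of NRF1, ETS factors (GABP) and YY1, which link nuclear subunits into one programme. RefSeq promoters (GRCm38.p6, 250 bases before to 50 after each start) were matched for 71 of the 87 genes. The NRF1 motif, searched on both strands, was in 23.4% of their 77 promoters and in 4.60% of all 32851. The ETS motif CCGGAAG was in 20.8% against 8.86%, and the YY1 motif in 9.09% against 0.852%. The HIF motif TACGTG was in 1.30% against 3.23%, and the only match was in the promoter of Uqcr11. Of the genes named under the rule for named genes, 6 carry an NRF1 match before a start site. The windows of 60 bases below show this match in capitals. Each is written 5′ to 3′ on the strand of the gene, so that members of different complexes can be set side by side; they lie at chr2:10080433-10080492, chr15:102671055-102671114, chr11:115420026-115420085, chr5:115349086-115349145, chr13:74350304-74350363 and chr9:50603894-50603953, all on the minus strand.
Atp5c1: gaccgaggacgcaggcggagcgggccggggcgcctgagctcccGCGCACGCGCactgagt
Atp5g2: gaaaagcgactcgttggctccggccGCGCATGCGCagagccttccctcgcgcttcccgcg
Atp5h: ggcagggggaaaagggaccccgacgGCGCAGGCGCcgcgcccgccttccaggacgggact
Cox6a1: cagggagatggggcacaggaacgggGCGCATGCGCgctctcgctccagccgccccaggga
Sdha: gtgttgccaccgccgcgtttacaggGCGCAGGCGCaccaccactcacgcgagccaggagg
Sdhd: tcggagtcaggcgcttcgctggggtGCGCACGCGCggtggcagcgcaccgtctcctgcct

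These matches are descriptions of letters in a window, not of binding. The Atp5c1 match lies before an inner start, within the gene, which begins at chr2:10080510 on the minus strand. In IM, the median log2 fold change, CrePos over CreNeg, was -0.90 over the 16 tested genes with an NRF1 match and -0.79 over the 50 without. For the YY1 motif it was -0.45 over 6 genes with a match and -0.90 over 60 without, and for the ETS motif -0.88 over 14 and -0.82 over 52.

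In IM, the subunit genes of all 5 complexes were lower in CrePos than in CreNeg libraries, although no single gene passed the test. Summed over the 87 genes, the level was 3308, 3411 and 3457 CPM in IM CreNeg libraries IM648, IM659 and IM660. It was 1838, 1833 and 1987 CPM in IM CrePos libraries IM649, IM650 and IM661. Every CrePos library lay below every CreNeg library, and the mean sums of 3392 ± 76.1 and 1886 ± 87.7 CPM (SD, n = 3) stood in a ratio of 1.80. In bulk libraries, less RNA of these genes per cell and fewer cells that hold it cannot be told apart.

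**Figure D1:**
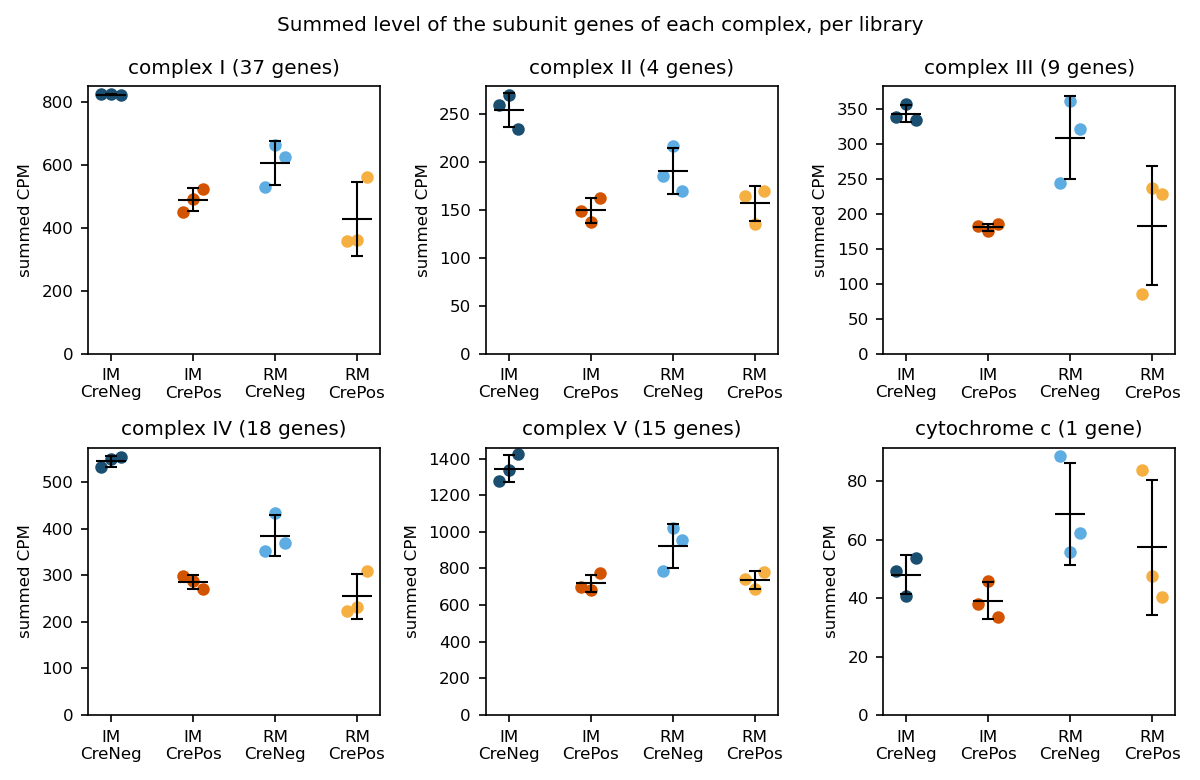
Summed CPM (y axis, from 0) of the subunit genes of each complex in each library (points) by group, with the mean and SD of 3 libraries (bars). In IM, the CrePos sums of complexes I to V all lie below the CreNeg sums, while in RM the complex I sums overlap and the highest CrePos sums of complexes II and V (169 and 781 CPM) nearly reach the lowest CreNeg sums (169.7 and 787 CPM).

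Complex I sums were nearly equal among the IM CreNeg libraries, at 824, 825 and 822 CPM, and were 451, 491 and 524 CPM in IM CrePos. Complex II sums were 259, 269 and 234 against 149, 137 and 162 CPM. Complex III stood at 343 ± 12.2 against 181 ± 5.25, complex IV at 545 ± 11.6 against 286 ± 14.3 and complex V at 1344 ± 74.3 against 718 ± 48.4 CPM (SD, n = 3). The ratios, CreNeg over CrePos, lay between 1.69 (complex I) and 1.91 (complex IV), so the complexes differed little from one another. Cytochrome c, the mobile carrier between complexes III and IV, rests on a single gene, with Cycs at 48.0 ± 6.64 and 39.2 ± 6.33 CPM in overlapping libraries. Near-identical copies in 51 other genes cover 35.0% of the Cycs mRNA, so its count is uncertain.

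Per gene, 80 of the 87 had enough counts to be tested among 14254 genes. In edgeR's quasi-likelihood test with Benjamini-Hochberg adjustment, 0 of the 80 passed in IM, where 0.288% of all genes tested passed. Of the 80, 16 had an unadjusted p under 0.05, all lower. Of the 14254 genes tested, 496 were lower and 907 higher at that level. The median log2 fold change of the 80 was -0.84, against 0.07 over all genes tested, and 78 of the 80 were below 0. Of all 87, 47 had no overlap between the groups and were lower in CrePos (10.2% of rows with a count did so), and 0 were higher without overlap (12.9%). By complex, the lower genes without overlap were 19 of 37 in complex I, 2 of 4 in complex II, 7 of 9 in complex III, 8 of 18 in complex IV and 10 of 15 in complex V. The median log2 fold changes were -0.74, -0.75, -0.92, -0.87 and -0.92 in the same order.

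**Figure D2:**
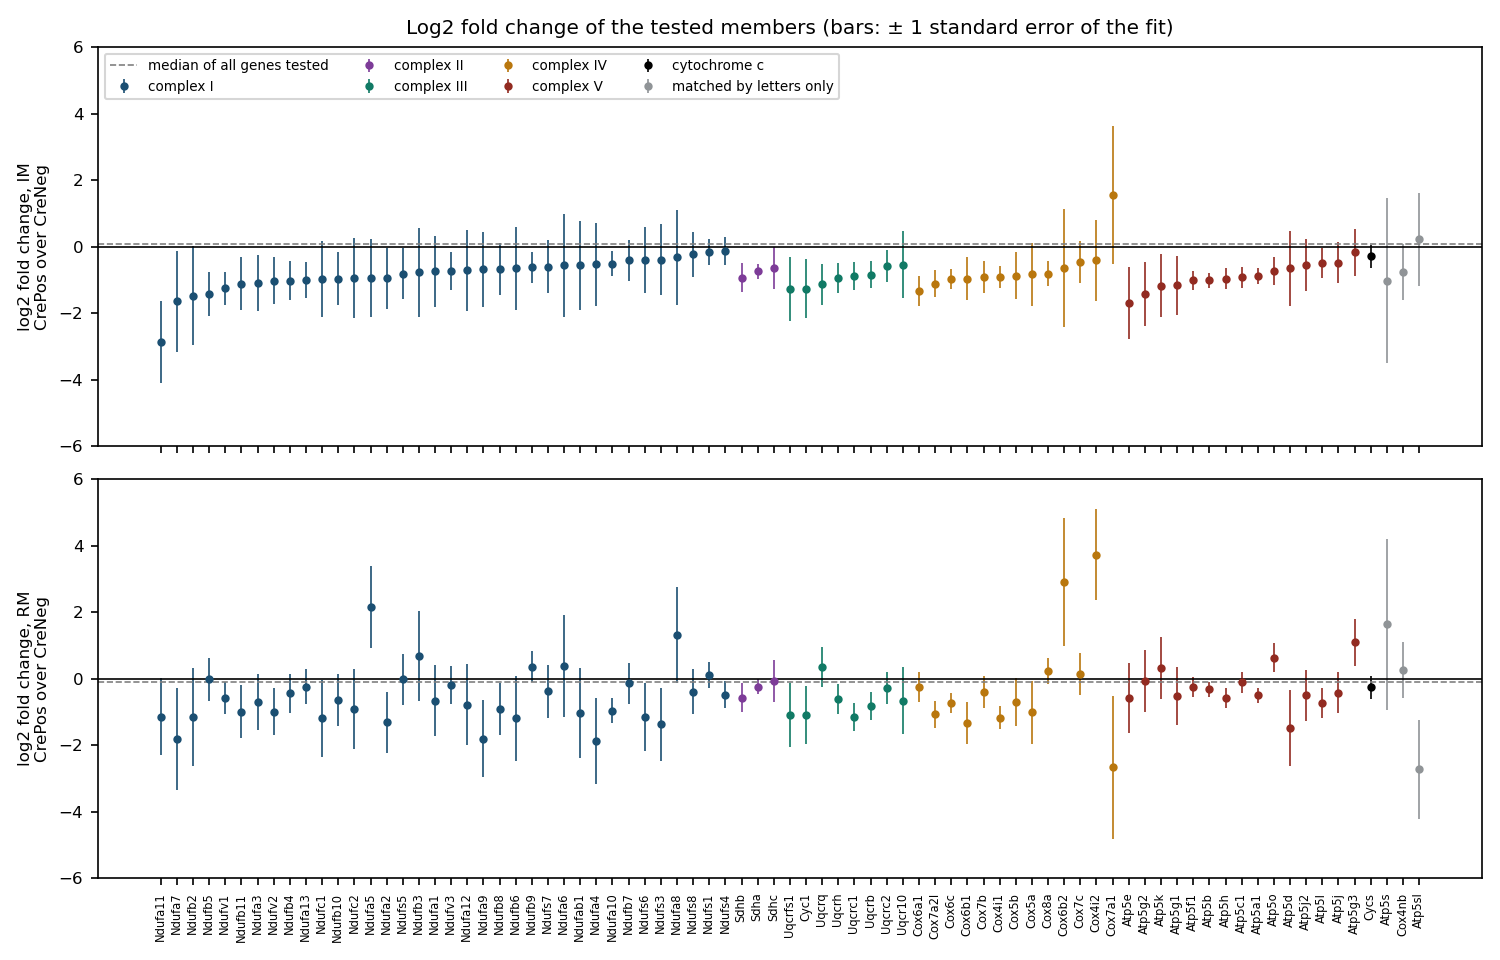
Log2 fold change, CrePos over CreNeg, of 79 of the 80 tested genes in IM (top) and RM (bottom), with ± 1 standard error, coloured by complex and in the same order in both panels. The dashed line is the median of all genes tested (0.07 in IM, -0.10 in RM); of the 80 tested, 78 are below 0 in IM and 64 in RM.

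The 3 genes with the smallest p in IM were all of the ATP synthase. Atp5b, the catalytic β subunit of the F1 head (chr10:128083307-128090388, plus strand), stood at 353, 401 and 419.6 CPM in IM CreNeg and at 189, 210.4 and 179 CPM in IM CrePos. The lowest CreNeg library was well above the highest CrePos library. The log2 fold change was -1.02 ± 0.22 (SE), with an adjusted p of 0.0664.
Atp5a1, the α subunit that forms the F1 head with β, was at 321, 314 and 348 against 169, 152 and 211 CPM, with a log2 fold change of -0.89 and an adjusted p of 0.125. Atp5f1, subunit b of the peripheral stalk, was at 131, 133 and 134 against 63.5, 63.8 and 68.9 CPM, with a log2 fold change of -1.02 and an adjusted p of 0.178. Neither gene's groups overlapped. Near-identical copies elsewhere cover 64.6% of the Atp5f1 mRNA, 5.22% of that of Atp5a1 and 0% of that of Atp5b, so the Atp5f1 count is uncertain. Counts of other genes named here are uncertain too. Copies cover 92% of the mRNA of Atp5o, 88.2% of that of Atp5g2, 86.8% of that of Atp5l and 77.8% of that of Atp5h. They cover 62.8% for Uqcrb, 45.9% for Cox6c, 37.5% for Atp5c1 and 35.0% for Cycs. Over the 12 genes with at least 50% covered the median in IM was -0.83, and over the 43 tested with none it was -0.88.

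How firmly these genes could be called depended on the fit. With only the 6 IM libraries in the fit, 16 of the 78 subunit genes tested fell (2.96% of genes tested fell in that fit). In DESeq2, 5 fell, namely Atp5a1, Atp5b, Atp5f1, Cox6c and Sdha (0.79% of genes).

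Among the genes with the highest level per length (RPKM, CPM divided by mRNA length in kb), Atp5b of complex V stood at 204 RPKM in IM CreNeg and 100.7 in IM CrePos, and the stalk subunit Atp5h at 211 and 108. In complex IV, Cox6c stood at 204 and 104 RPKM and Cox4i1 at 127 and 67.1. In complex III, Uqcrb stood at 154 and 85.7 RPKM and the hinge protein gene Uqcrh at 66.6 and 34.3. In complex II, the flavoprotein gene Sdha stood at 63.4 and 37.7 RPKM and the iron-sulfur gene Sdhb at 37.0 and 19.3. In complex I, the accessory subunit Ndufb9 stood at 42.1 and 27.3 RPKM. Each of these 9 genes was lower in all 3 IM CrePos libraries than in any IM CreNeg library. The order of levels among the 87 genes was nearly kept, with a Spearman rho of 0.959 across genes between the IM group means; genes are not independent replicates.

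Not every subunit followed. Ndufs1, the largest core subunit of complex I, was at 31.2, 59.9 and 36.1 CPM in IM CreNeg and 26.2, 40.4 and 46.3 CPM in IM CrePos, with overlapping groups and a log2 fold change of -0.17 ± 0.39 (SE). The 3 genes for the c subunit of the ATP synthase rotor encode the same mature protein. Atp5g1 (15.3 ± 4.8 against 6.83 ± 1.73 CPM) and Atp5g2 (20.5 ± 6.92 against 7.58 ± 2.29 CPM) did not overlap between the IM groups, while Atp5g3 (21.2 ± 8.59 against 18.7 ± 9.14 CPM; SD, n = 3) did. Sdhc, a membrane anchor of complex II, also overlapped, at 27.8 ± 8.81 and 17.7 ± 7.81 CPM. The core subunits of complex I had a median log2 fold change of -0.60 (7 genes) and the accessory subunits one of -0.76 (30 genes).

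**Figure D3:**
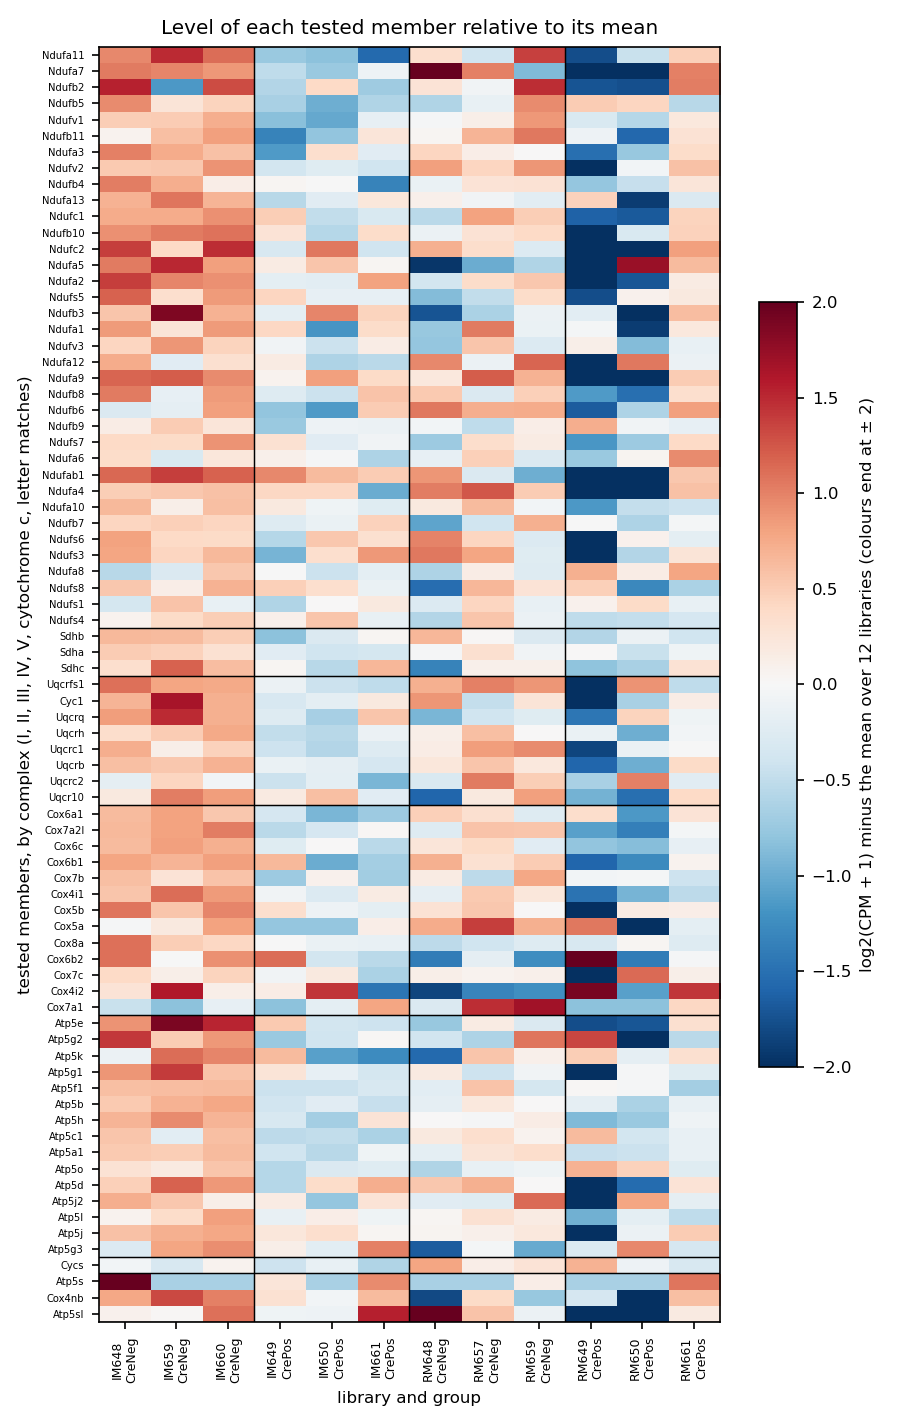
Level of 79 of the 80 tested genes (rows, by complex) in each library (columns), as log2(CPM + 1) minus the mean of the gene over 12 libraries; red is above and blue below that mean. The 3 IM CreNeg columns are red in most rows, and RM CrePos libraries RM649 and RM650 hold the darkest blue rows, among them genes with a count of 0. RM649 and RM650 also had the fewest gene counts.

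Several library properties moved with the IM difference. The non-exonic share was higher in all 3 IM CrePos libraries, as given above. With that share as a covariate, the subunit median was 0.05 and the median of all genes 0.52, so their gap of -0.91 became -0.47. The fold changes of Atp5h, Cox4i1, Cox7a2l, Uqcrb and Sdhc, among others, then stood above 0. The nuclear RNA Malat1 took 0.862 to 1.68% of gene counts in IM CreNeg and 4.34 to 4.57% in IM CrePos. Short mRNAs as a whole were lower in CrePos: over all genes tested, the median was -0.40 for mRNAs up to 1 kb, -0.28 from 1 to 2 kb, -0.04 from 2 to 4 kb and 0.34 above 4 kb. In the first 3 of these length ranges the subunit genes stood at -0.81 (47 genes), -1.0 (22 genes) and -0.56 (9 genes), below all genes of like length. The sum of the interstitial macrophage markers was also lower in IM CrePos, by a ratio of 1.38. Most of it was Apoe, at 9835, 9248 and 8941 CPM in IM CreNeg and 7287, 5676 and 6507 CPM in IM CrePos. Of the 9 markers, 7 were below 0 and 2 above, with 5 lower and 1 higher without overlap. The higher one was Mertk, at 247, 189 and 252 CPM in IM CreNeg and 385, 359 and 374 CPM in IM CrePos. The part of these properties in the result was not tested further. Within the 2 IM sequencing lanes the subunit median was -0.84 (lane 7) and -0.87 (lane 5), with all genes tested at 0.00313 and 0.107.

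**Figure D4:**
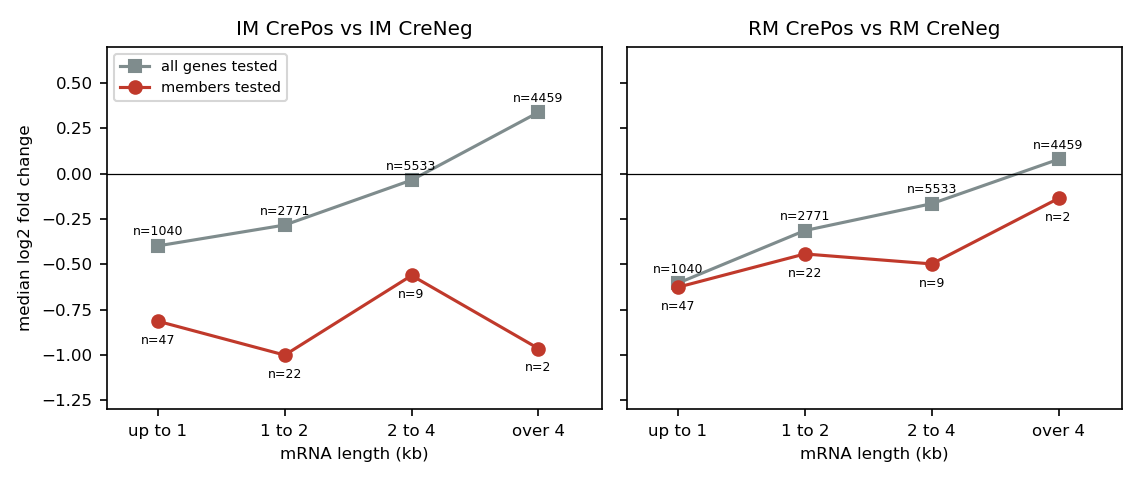
Median log2 fold change, CrePos over CreNeg, of all genes tested (grey squares) and of the subunit genes tested (red circles) by mRNA length in kb, with the number of genes at each point. In IM the subunit genes lie below all genes at each length, while in RM both medians nearly coincide up to 1 kb (-0.60 and -0.63); the last red point holds 2 genes.

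In RM the difference was smaller and less even. Summed over the 87 genes, the level was 2217, 2779 and 2517 CPM in RM CreNeg libraries RM648, RM657 and RM659 and 1666, 1701 and 2116 CPM in RM CrePos libraries RM649, RM650 and RM661. The highest CrePos library came close to the lowest CreNeg library. The median log2 fold change was -0.55 against -0.10 over all genes, and 64 of 80 genes were below 0. In edgeR's quasi-likelihood test 0 of the 80 passed, where 0.421% of all genes did, and 7 had an unadjusted p under 0.05, 6 lower and 1 higher. At that level 1244 of the 14254 genes tested were lower and 1057 higher, so neither share was above that of all genes. Without overlap, 7 of the 87 were lower (8.54% of rows with a count) and 2, Cox4i2 and Ndufa8, higher (4.47%), so the share of lower genes was near that of all rows.

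Cox4i1, the main isoform of subunit 4 of complex IV, had the smallest p in RM. It was at 46.9, 76.6 and 62.2 CPM in RM CreNeg and at 18.5, 27.3 and 36.5 CPM in RM CrePos. All CrePos libraries lay below all CreNeg libraries. The log2 fold change was -1.17 ± 0.34 (SE) with an adjusted p of 0.110. DESeq2 called it lower (adjusted p 0.0396), as it did 2.12% of genes.
Uqcrc1, a core protein of complex III, was at 57.7, 93.7 and 102 CPM in RM CreNeg and at 13.9, 47.6 and 51.8 CPM in RM CrePos, with a log2 fold change of -1.16 and an adjusted p of 0.195. The other 5 lower genes without overlap were Atp5h, Uqcrh and, chosen after their values were seen, Atp5l, Cox6b1 and Ndufa10, with log2 fold changes between -0.58 and -1.34.

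Cox4i2, the isoform of subunit 4 known to be induced in hypoxia and to mark some lung and vascular cells, went the other way in RM. It was at 0.295, 0.856 and 0.970 CPM in RM CreNeg and at 16.2, 1.18 and 11.5 CPM in RM CrePos libraries RM649, RM650 and RM661. The groups did not overlap, but RM650 was close to the CreNeg libraries. The log2 fold change was 3.73 ± 1.37 (SE) with an adjusted p of 0.189. DESeq2 called it higher (adjusted p 0.0129), as it did 3.53% of genes.
In IM it was at 4.6, 13.1 and 4.0 CPM in CreNeg and at 4.14, 11.4 and 0.677 CPM in CrePos, with overlapping groups. The difference of the 2 CrePos effects for Cox4i2 was -4.14 ± 1.80 (log2, IM minus RM; SE), with an adjusted p of 0.540. The endothelial marker sum was 577, 984 and 1840 CPM in RM CreNeg and 2865, 2500 and 6283 CPM in RM CrePos, and 10 of the 10 markers had a log2 fold change above 0. The sum of 7 fibroblast and smooth muscle markers was 69.5, 143 and 147 CPM in RM CreNeg and 106, 279.9 and 373 CPM in RM CrePos. The part of these cells in the Cox4i2 level was not tested.

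**Figure D5:**
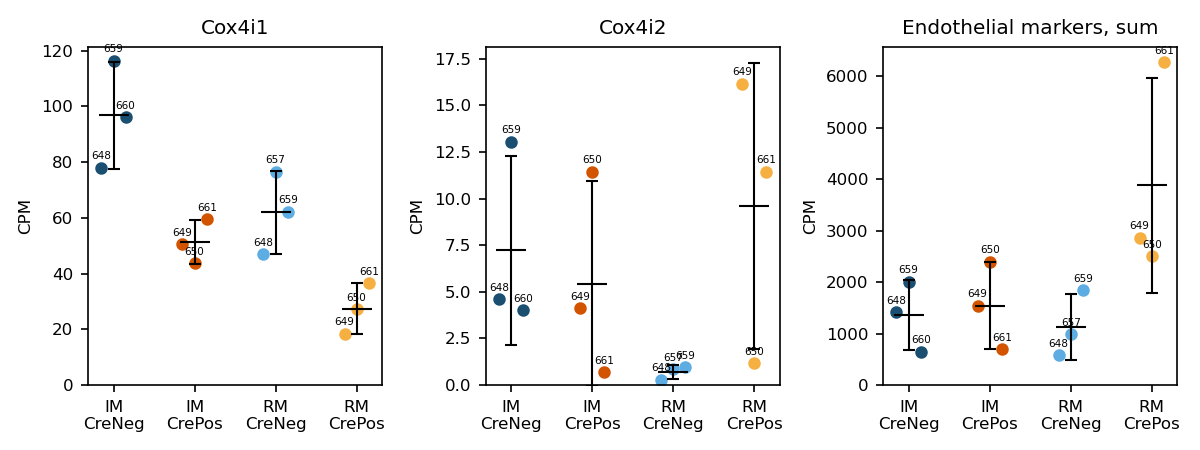
CPM of Cox4i1 and Cox4i2 and the summed CPM of the 10 endothelial markers by group; points are libraries labelled by number, and bars are the mean and SD of 3 libraries. Cox4i1 is lower in both CrePos groups, while Cox4i2 is high in RM CrePos libraries RM649 (16.2 CPM) and RM661 (11.5 CPM) and at 1.18 CPM in RM650.

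The RM CrePos library RM661 stood apart from RM649 and RM650: 6 of the 87 genes had a count of 0 in it, against 20 in RM649 and 14 in RM650. Depth and all genes differed likewise. RM649 and RM650 held 5332600 and 6109857 gene counts, with 10526 and 11933 of all 26608 rows above 0. RM661 was deeper, with 11169706 gene counts and 17179 rows above 0. Without it, 7 genes fell in RM (3.37% of genes tested fell in that fit), among them Cox4i1, Cox7a2l and Uqcrb, and the other 4 (Atp5sl, Ndufa7, Ndufa9 and Ndufab1) were at or below 0.294 CPM in both libraries that remained. Uqcrb stood at 62.3, 79.3 and 61.6 CPM in RM CreNeg and at 17.2, 26.7 and 69.6 CPM in RM CrePos, the last value being RM661. The marker sum of nonclassical monocytes was also lower in RM CrePos, at 6052 ± 2043 against 10957 ± 2751 CPM (SD, n = 3), and its lowest value, 3744 CPM, was in RM661. Within lanes, the subunit median was -0.21 in lane 8, which held RM649 and RM661, and -0.87 in lane 6, which held RM650. The medians of all genes tested were -0.135 in lane 8 and -0.281 in lane 6. In lane 8, 50 of the 80 subunit genes were below 0, and in lane 6, 62 were.

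The effects in the 2 cell types were not shown to differ. The difference of effects (IM minus RM) had a median of -0.31 over the 80 genes against 0.19 over all genes. Without RM661 these medians were -0.0115 and 0.47, and without IM661 -0.55 and -0.0112. In edgeR's quasi-likelihood test of this difference 0 of 80 subunit genes passed, as did 0% of all genes. An unadjusted p under 0.05 was found for 3, all lower, namely Cox4i2, Atp5o and Atp5b. Of the 14254 genes tested, 394 were lower and 877 higher at that level. Atp5o, a stalk subunit of complex V, was at 34.1, 31.7 and 41.1 against 18.4, 22.5 and 23.3 CPM in IM and at 18, 25.1 and 26.1 against 45.5, 38.6 and 23.3 CPM in RM, for a difference of -1.37 ± 0.60 (SE) with an adjusted p of 0.543.

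Between the CreNeg groups, the subunit genes were higher in IM than in RM. The median log2 fold change, IM over RM, was 0.48 against 0.06 over all genes, with 67 of 80 above 0. In edgeR's test 0 of 80 passed, where 7.48% of all genes did, and 5 had an unadjusted p under 0.05, all higher. At that level 1286 of the 14254 genes tested were higher and 1579 lower. The share of higher subunit genes was thus below that of all genes. Without overlap, 29 of 87 were higher in IM (14.2% of rows with a count) and 1, Cycs, was lower (12.9%). Complex V had 15 of 15 above 0, with a median of 0.63.
Atp5b was at 217, 285 and 247 CPM in RM CreNeg, below the 3 IM CreNeg libraries given above, with a log2 fold change of 0.65 and an adjusted p of 0.0926. Cox8a, the ubiquitous isoform of subunit 8 of complex IV, was at 67.8, 43.8 and 41.4 CPM in IM and at 21.2, 23.2 and 25.7 CPM in RM, with a log2 fold change of 1.124 and an adjusted p of 0.0929. Uqcrq, a small subunit of complex III, was at 31.2, 49.7 and 28.7 CPM in IM and 8.56, 12.7 and 14.3 CPM in RM, with a log2 fold change of 1.62 and an adjusted p of 0.141. Each gene's IM libraries all lay above its RM libraries. In DESeq2, 4 of the subunit genes were higher in IM (Atp5b, Cox4i2, Cox8a and Uqcrq), where 4.84% of genes were, and 5 were with only the CreNeg libraries in the fit (6.52% of genes).
With the non-exonic share as a covariate, the median turned to -0.17, with all genes at -0.34. Lanes and cell types cannot be told apart, since each lane held 1 cell type.

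Between the CrePos groups that gap was not seen. The median log2 fold change, IM over RM, was 0.15 against 0.14 over all genes, and the sums of 1886 ± 87.7 and 1828 ± 250.5 CPM (SD, n = 3) overlapped. In edgeR's test 0 of 80 passed, where 4.57% of all genes did, and 1 gene, Cox4i1, had an unadjusted p under 0.05. At that level 1368 of the 14254 genes tested were higher and 832 lower. Without overlap, 5 of 87 were higher in IM (12.7% of rows with a count) and 3 lower (4.66%). Cox4i1 was higher in IM CrePos (50.6, 43.8 and 59.5 CPM) than in RM CrePos, with a log2 fold change of 0.90 and an adjusted p of 0.183. Atp5c1, the γ shaft of the F1 head, was lower in IM CrePos (53.8, 55.0 and 49.8 CPM) than in RM CrePos (121, 60.4 and 69.9 CPM), with a log2 fold change of -0.66 and an adjusted p of 0.337. Without RM661, 6 of the subunit genes were higher in IM (8.2% of genes tested). This comparison and the one between CreNeg groups use the same libraries as the genotype comparisons.

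For subunits 6a and 8 of complex IV, the ubiquitous isoform was the higher one. Cox6a1 stood at 89.98 RPKM and Cox8a at 92.8 RPKM in IM CreNeg, while their heart and muscle isoforms Cox6a2 and Cox8b stood at 0.706 and 0.0740 RPKM. For subunit 7a this was not so: the ubiquitous Cox7a2 stood at 0.114 RPKM in IM CreNeg and 2.78 in RM CreNeg, and the muscle isoform Cox7a1 at 0.722 and 7.605. Cox6a2, Cox8b and Cox7a2 did not have enough counts to be tested. In RM their counts came mainly from RM657, with 27, 34 and 45 counts. Cox7a2 had at most 18 counts in any IM library. The annotation used for counting is not given, so its row may say nothing about the RNA, and the 7a isoforms cannot be ranked. Cox7a1 was tested but had at most 4.61 CPM in any library. Cox7a2l, which helps to join complexes III and IV, stood at 79.5 ± 10.3 against 36.6 ± 7.51 CPM in IM (SD, n = 3), a log2 fold change of -1.12 with an adjusted p of 0.317. Cox6a1 was at 51.4 ± 4.8 against 20.2 ± 4.44 CPM in IM, a log2 fold change of -1.35 with an adjusted p of 0.266.
Sdhd, an anchor of complex II, and Uqcr11, a small subunit of complex III, are required in most tissues but had almost no counts. Sdhd had 2 counts in RM659 and 0 in the others, and Uqcr11, Cox7b2 and Cox8c had 0 in all 12 libraries. A count of 0 allows up to 3 counts, or 0.219 to 0.494 CPM depending on the library. The annotation used for counting is not given in the sources used here, so these rows may say nothing about the RNA.

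Genes that work with the chain were read from lists. In IM, none of these lists had a gene that passed edgeR's test. Over all genes tested, 46.8% were below 0, and 10.2% of rows with a count were lower without overlap. The tricarboxylic acid cycle, which supplies NADH and succinate, had 16 of 18 genes below 0 with a median log2 fold change of -0.57, and 12 of the 18 were lower without overlap. Genes of ATP export, uncoupling and membrane potential had 7 of 9 below 0 with a median of -0.68, and HIF-linked regulators 9 of 10 with a median of -0.50. The HIF-linked list holds Cox4i2, which is also a subunit gene described above and is counted in both places. Assembly factors had 19 of 27 below 0 with a median of -0.34, and other entry points to ubiquinone 5 of 7 with a median of -0.41. Genes of mitochondrial biogenesis had 6 of 17 below 0 with a median of 0.32, and 5 of 5 further subunits named outside the rule were below 0 with a median of -0.91.
In RM, 1 of 18 cycle genes and 1 of 9 ATP export genes passed, both lower, as did 0.337% of all genes, and none of the other lists had a gene that passed. Slc25a5, an exchanger of ATP and ADP across the inner membrane, fell from 175, 178 and 151 CPM in RM CreNeg to 74.4, 47.5 and 65.5 CPM in RM CrePos, with a log2 fold change of -1.43 and an adjusted p of 0.0284. Dlst, a subunit of the 2-oxoglutarate dehydrogenase complex, fell from 267, 217 and 165 to 82.5, 72 and 73.5 CPM, with a log2 fold change of -1.51 and an adjusted p of 0.0375. In neither gene did the groups overlap. Over 18 alternative fits, the call was kept in 10 for Slc25a5 and in 8 for Dlst, with adjusted p up to 0.277 for both. Leaving out IM648, IM659, IM660, IM649, RM648 or RM657 ended both calls, and leaving out IM650 ended that of Dlst.
Between the CreNeg groups, 4 of the 92 list genes tested were lower in IM than in RM in edgeR's test, where 4.67% of all genes were, a share near that of the lists: Gpd2, the mitochondrial glycerol-3-phosphate dehydrogenase that feeds ubiquinone (log2 fold change -2.44, adjusted p 0.000568), Pdha1 of the pyruvate dehydrogenase complex (-1.25, 0.0268), Dlst (-1.08, 0.0272) and Mxi1, a repressor of MYC activity (-1.20, 0.0324). Between the CrePos groups 2 of the 92, Gpd2 and Pdha1, were lower in IM (1.35% of all genes), each with a log2 fold change of -1.47 (adjusted p 0.0160 and 0.0152). These calls were kept in 17 of 18 alternative fits for Gpd2 between the CreNeg groups, in 13 for each gene between the CrePos groups, and in 9 (Mxi1) or 10 (Dlst, Pdha1) otherwise. Leaving out any 1 IM CreNeg library, or RM648 or RM657, ended the calls of Dlst, Pdha1 and Mxi1 between the CreNeg groups. So did leaving out IM661 for Dlst and Mxi1, IM649 for Mxi1 and RM659 for Pdha1. Between the CrePos groups, the call of Gpd2 ended when any 1 IM CrePos library was left out, and that of Pdha1 without IM650, IM661 or RM650.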

How the data were processed

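For each library the authors deposited a table of raw gene counts, not normalized. The submitters' processing notes list HTSeq 0.6.0, TopHat2 2.1.1, cutadapt 1.12 and the build GRCm38 (mm10); which annotation and strand setting served for counting is not given in the sources used here. Per the labels' protocols the kit takes total RNA and is stranded. The 5 summary rows of each file (45.0 to 74.1% of reads) stayed out of library sizes and tests.

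All 12 libraries entered 1 edgeR 4.0.16 quasi-likelihood fit (R 4.3.3) with TMM factors, 4 group means and genes kept by filterByExpr (minimum count 10), leaving 14254 genes. A gene passed at a Benjamini-Hochberg adjusted p under 0.05 over all genes tested. CPM use TMM-scaled library sizes, and RPKM add mRNA lengths from the longest GENCODE M21 transcript of each gene that is paired with RefSeq. Fold changes come from the fit. Near-identical copies in other genes, overlapping genes included, were found with blastn 2.17.0 (at least 95% identity over 100 bases). The code was tested on simulated data. Alternatives were RLE factors, DESeq2 1.42.0, no filter, each library left out, only the groups compared, a replicate block, and lane or non-exonic share as covariates.

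Members and lists were chosen with earlier results of these data known. Genes named are the members past the threshold or, failing that, the 3 with the smallest p in each comparison, the 2 with the highest RPKM per complex, Cycs, the Sdh genes, the tissue isoforms and Ndufs1. The values of 1 member are not reported here; it stays in the counts, sums and medians. Figures used Python 3.11.15 and matplotlib 3.10.9. Intervals of depth cover counting error only.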

Additional observations from a re-analysis of the deposited data

How the results depend on the processing

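Of 15 results that answer a comparison (counts past the threshold and medians), 249 of 270 combinations with an alternative kept direction and size. The counts were all 0 in the main fit, and some alternatives called few genes of any kind. In IM the main fit called 34 of all genes higher and 7 lower. Leaving out 1 IM library gave 0 to 2 higher and 0 lower, and lane or non-exonic share as a covariate gave 0. Counts that stayed at 0 there say little about how stable the result is. With the non-exonic share as a covariate the subunit median turned to 0.0526 in IM, 0.42 for the difference of effects and -0.17 between CreNeg groups. The medians of all genes in that fit were 0.52, 0.47 and -0.34 in the same order. With lane as a covariate the subunit median was -0.91 in IM, with all genes at 0.07. In IM, 5 subunit genes fell in DESeq2 and 16 with only the groups compared. With 1 library left out, 0 to 2 fell, while the median ran from -0.95 to -0.77. These were Atp5b without RM649, RM650 or RM661, and Atp5a1 without RM661. Of all genes, 0.299%, 0.133% and 0.553% fell without RM649, RM650 and RM661. In RM, DESeq2 called 1 lower and 1 higher, and leaving out 1 library gave 0 to 7 lower. Between CreNeg groups DESeq2 called 4 higher, only those groups 5, and 1 library left out 0 to 3. The 3 came without RM649, where 4.54% of all genes were higher. Between CrePos groups, leaving out 1 library gave 0 to 6 higher, with the median from -0.11 to 0.56. For the difference it gave 0 to 1, with the median from -0.55 to -0.0115. The 6 and the 1 came without RM661, where 8.2% and 0.229% of all genes were higher. RLE factors moved the median of all genes in RM from -0.10 to 0.04.

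Single genes and complexes reversed in 53 of 1528 combinations, and the cause was not tested. With the non-exonic share in IM, complex I stood at 0.27, complex III at 0.0736, Atp5g3 at 0.22, Atp5h at 0.11, Cox4i1 at 0.13, Cox7a2l at 0.35, Ndufs1 at 0.0302, Sdhc at 1.48, Uqcrb at 0.59, Uqcrc1 at 0.0997 and Uqcrq at 0.0475. The median of all genes in that fit was 0.52, and of these values only those of Sdhc and Uqcrb were above it. With 1 library left out in IM, Atp5g3 ran from -0.70 to 0.0658, Cox4i2 from -1.58 to 0.25, Cox7a1 from -0.20 to 2.43 and Ndufs1 from -0.40 to 0.0871. In RM, Atp5c1 stood at 0.0531 (RLE factors), 0.0523 (DESeq2), 0.0101 (no filter) and 0.0210 (only the groups compared), and Atp5g2 at 0.0925, 0.0922, 0.0411 and 0.0565. Sdhc stood at 0.0872 (RLE factors), 0.0888 (DESeq2), 0.0362 (no filter), 0.0496 (only the groups compared), 0.24 (lane) and 0.41 (non-exonic share). With 1 library left out in RM, Atp5c1 ran from -0.47 to 0.0773, Atp5f1 from -0.43 to 0.0873, Atp5g2 from -1.66 to 0.73, Cox6a1 from -0.50 to 0.0972, Ndufb9 from -0.00012 to 0.52, Ndufs1 from -0.0612 to 0.35, Sdhc from -0.53 to 0.16 and Uqcrq from -0.13 to 0.74.

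CrePos and CreNeg share no replicate number, so the replicate block was fitted only between cell types and for the difference. With it, 0 subunit genes passed, with medians of 0.61 (CreNeg), 0.50 (CrePos) and -0.27 (difference). The medians of all genes were 0.18, 0.47 and 0.42 in the same order. Of all genes, 0.772% were higher and 1.26% lower in IM between the CreNeg groups. Between the CrePos groups 2.13% were higher and 0.659% lower, and for the difference 0% passed. Same-numbered libraries had correlations of deviations from -0.0654 to 0.0809 (each under 0.1), so no pairing was used; whether a number marks an animal was not settled. IM661 and RM661 had the 2 highest Rnr1 shares of gene counts of the 12 libraries, 12.4 and 12.1%. Where an arm was left with 2 libraries the spread was pooled over all groups. Depth limits genes with few counts: 7 of 87 could not be tested.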
